A study of Mus musculus with 20 samples.

Results

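Male germ cells that lack Tex15 were compared between embryonic days e18.5 and e16.5. The comparison rests on 6 of the series' 20 libraries, 3 from Tex15-/- (knockout) cells at e18.5 and 3 from Tex15-/- cells at e16.5, chosen by genotype and age from the titles and joined on the gene or repeat name. The 3 Tex15+/- (heterozygous) libraries at e18.5 and the 3 Tex15+/- libraries at e16.5 were used to ask where the change with age differed between genotypes, and libraries from the third age of the series, d2, entered only 1 alternative. All cells were male germ cells of mixed strain background, sorted by flow cytometry for green fluorescent protein. The labels name neither the promoter that drives this protein nor the part of Tex15 that was deleted. Total RNA was amplified with Ovation kits and sequenced on a NextSeq500. The design text calls the replicates biological, but no label ties a library to an animal; the p-values speak only of the spread among these libraries.

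In this window of mouse development male germ cells, called prospermatogonia, have stopped dividing and build up DNA methylation anew over their genome. PIWI-interacting RNAs (piRNAs), short RNAs carried by PIWI proteins, direct part of that methylation to transposons, which are transcribed in the window before it is complete. TEX15 is a nuclear protein of germ cells that is needed for piRNA-directed silencing of young retrotransposons and for meiotic recombination. How germ cells without it go through these days is what the comparison of the ages addresses.

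Tex15 was read first as a check of the genotype labels. The knockout libraries held 1.63, 4.23 and 2.59 CPM (counts per 1000000 gene counts, scaled with edgeR's TMM factors) at e18.5, and 3.44, 3.88 and 5.17 CPM at e16.5. The heterozygous libraries held 1267, 1243 and 1718 CPM at e18.5 and 2033, 1915 and 1666 CPM at e16.5. All 6 knockout libraries lay far below all 6 heterozygous ones, and Tex15 did not pass the test of age in knockout cells (log2 fold change -0.59 ± 0.27 (SE), adjusted p = 0.0817, edgeR). The germ cell label was checked against 15 markers, all of which were counted: they summed to 5952 to 7064 CPM in the knockout libraries at e18.5 and to 9276 to 10441 CPM at e16.5.

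The knockout libraries at e18.5 held between 26.9 and 30.3 M counts (M, 1000000) over genes and repeats, against between 25.4 and 29.7 M in those at e16.5, and gene counts alone came to between 9.97 and 12.1 M at e18.5 and between 12.8 and 13.9 M at e16.5. Along the first principal component of the gene values, which carried 51.9% of the variance, the knockout libraries lay at 62 to 69.8 at e18.5 and at -93.4 to -58.7 at e16.5. The heterozygous libraries lay at 51.8 to 65.9 at e18.5 and, at e16.5, at -75.2, -62.7 and 0.6. The last of these, heterozygous e16.5 replicate 3, stands apart from its group, between the ages. The main counts of calls that use heterozygous cells are therefore also given without it. The ages were deposited in separate tables, and age and any batch of those tables cannot be told apart.

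Much of the transcriptome of knockout germ cells differed between the ages. Of 18589 genes tested, 7961 (42.8%) were called, 4237 (22.8%) higher at e18.5 and 3724 (20%) lower, and the median log2 fold change over all genes was 0.07. The threshold was an adjusted p of 0.05 in edgeR's quasi-likelihood test with Benjamini-Hochberg adjustment over all genes. Of the called genes, 3319 were higher by at least 2-fold and 1270 were lower by at least 2-fold. Of the genes that rose, 1209 averaged under 1 CPM at e16.5, and of those that fell, 58 averaged under 1 CPM at e18.5. Genes that scarce could reach the test through the counts of the other age.

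The direction of the calls went with the level of a gene. Among the 3220 most abundant genes, those with a mean log2 CPM of 6 and over, 44.8% fell and 12.8% rose. Among the 4876 genes between 2 and 4 on the same scale, 13.7% fell and 27.3% rose. Without a scaling factor 2196 genes were lower and 5488 higher, and with offsets for gene length and GC content, an alternative added after the data were seen, 4990 were lower and 3508 higher. Under these alternatives the median of all genes lay at 0.32 and -0.09.

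Genes that mark the primordial and pluripotent state had the lowest median change of the lists examined. Of 27 tested members of the list of pluripotency and primordial germ cell genes, 13 (48.1%) fell and 0 rose, with a median log2 fold change of -1.20, against 20% lower calls and a median of 0.07 over all genes. Among all genes with a mean log2 CPM of 6 and over, 44.8% fell. In heterozygous cells 9 members of the list fell and 1 rose (median -0.49). Dppa3, which encodes Stella, a protein of primordial germ cells and oocytes that guards DNA methylation in the early embryo, was counted at 9.34, 24.9 and 25.1 CPM at e18.5, against 461, 922 and 546 CPM at e16.5. The ages did not overlap, and its log2 fold change of -5.03 ± 0.93 (adjusted p = 0.00283) was the largest decrease among the genes whose knockout mean reached a log2 CPM of 3 and whose ages were apart, Gm and Rik symbols aside. Ifitm3, long used to mark primordial germ cells, lay at 0.778, 1.75 and 0.752 CPM at e18.5, against 12.6, 20.3 and 23.5 CPM at e16.5 (log2 fold change -4.11 ± 0.46, adjusted p = 1.85e-06). Its relative Ifitm2 was likewise lower in each library, at 4.05, 5.61 and 6.77 CPM at e18.5, against 41.4, 48.3 and 78.4 CPM at e16.5.

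Other members of that list fell as well. Utf1, a chromatin-bound factor of undifferentiated cells, was counted at 302, 217 and 392 CPM at e18.5, against 1009, 979 and 1338 CPM at e16.5 (log2 fold change -1.87 ± 0.17, adjusted p = 2.76e-07). Its lowest e16.5 library held more than its highest e18.5 library, as was so for Sall4, a zinc finger factor, with 278, 295 and 256 CPM at e18.5, against 628, 844 and 681 CPM at e16.5. Lin28a, which blocks the maturation of let-7 microRNAs, lay at 56.8, 49.5 and 54.6 CPM at e18.5, against 127, 201 and 127 CPM at e16.5. Sox2 (log2 fold change -2.50), Pou5f1 (-1.40), Tfap2c (-1.77) and Dppa4 (-1.79) also passed. Nanog (-0.57), Prdm14 (-0.37), Dppa2 (0.10) and Kit (0.19) did not. Nodal, a TGF-beta ligand that acts on fetal male germ cells, was scarce and still passed, at 0.311, 0.46 and 0.836 CPM at e18.5, against 2.52, 3.63 and 3.05 CPM at e16.5 (log2 fold change -2.50 ± 0.66, adjusted p = 0.00478).

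Dnd1 and Nanos2, both of which encode RNA-binding proteins of germ cells, fell too. Dnd1, which protects germ cells from loss and from tumour formation, lay at 4.83, 5.43 and 7.52 CPM at e18.5, against 47.8, 40.9 and 54 CPM at e16.5 (log2 fold change -3.00 ± 0.25, adjusted p = 7.6e-08). Nanos2, which sets male germ cell fate, lay at 4.51, 2.39 and 3.09 CPM at e18.5, against 9.06, 12.5 and 14.6 CPM at e16.5, without overlap between the ages. Of the 25 tested fetal prospermatogonia genes, 16 (64%) fell and 0 rose (median -0.87), against 20% lower and 22.8% higher over all genes. Across the settings run, 12 to 18 of the 25 fell and 0 to 4 rose. In heterozygous cells 11 of the 25 fell and 4 rose. Among all genes with a mean log2 CPM of 6 and over, 44.8% fell and 12.8% rose in knockout cells. Nxf2, an mRNA export factor of germ cells from the list of spermatogonial differentiation, was counted at 395, 471 and 645 CPM at e18.5, against 1778, 1907 and 1598 CPM at e16.5 (log2 fold change -1.81 ± 0.19).

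**Figure D1:**
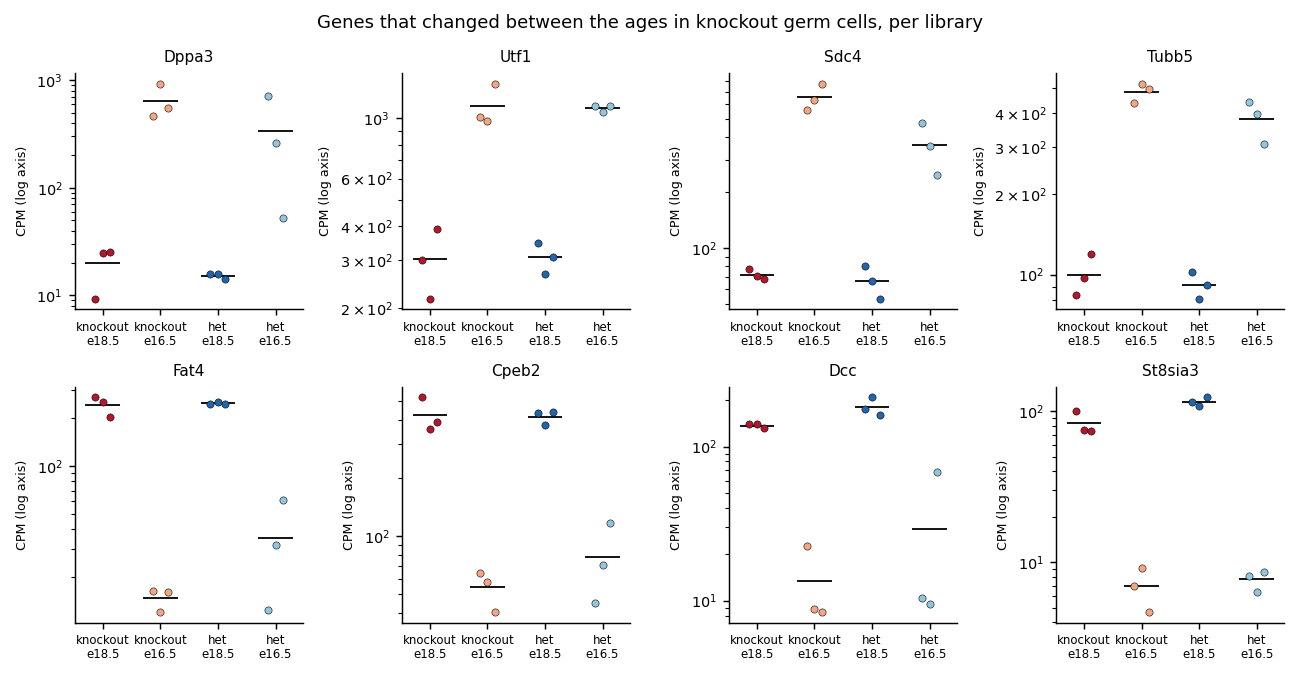
CPM on log axes for 8 named genes, 1 point per library and the group mean as a line, for knockout and heterozygous (het) cells at e18.5 and e16.5. In knockout cells the ages do not overlap in any of the 8 panels: Dppa3, Utf1, Sdc4 and Tubb5 are lower at e18.5, and Fat4, Cpeb2, Dcc and St8sia3 are higher. Heterozygous e16.5 replicate 3 is nearer to e18.5 than its group for Dppa3 (51.9 CPM), Fat4 (61 CPM) and Dcc (67.9 CPM).

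The genes with the largest increases at a mean log2 CPM from 3 up, named by their size and not as a group, included Fat4, Dcc and St8sia3. Fat4, a giant cadherin, was counted at 271, 251 and 203 CPM at e18.5, against 16.4, 12.1 and 16.1 CPM at e16.5 (log2 fold change 4.02 ± 0.42, adjusted p = 1.81e-05). Dcc, the receptor of the axon guidance cue netrin, lay at 139, 140 and 132 CPM at e18.5, against 22.6, 8.87 and 8.46 CPM at e16.5 (log2 fold change 3.36 ± 0.77, adjusted p = 0.00822). St8sia3, which adds sialic acid to glycolipids, lay at 101, 75.4 and 73.5 CPM at e18.5, against 6.96, 9.2 and 4.7 CPM at e16.5. In these genes every e18.5 library exceeded every e16.5 library. Chat, the enzyme that makes acetylcholine, the ion channel gene Scn3b, and Lrp1b, a receptor of the LDL receptor family, had log2 fold changes of 3.66, 3.91 and 3.30. Soga3 (3.99), Faxc (3.82), Elfn1 (3.69), Trhde (3.64) and Klhl1 (3.29) rose by similar amounts. Among the largest decreases of that class were Khdc1a (-4.20), Ifi27 (-2.70), Pfas (-2.66), an enzyme of purine synthesis, Tst (-2.59) and Foxr1 (-2.50).

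Among genes whose knockout mean reached a log2 CPM of 6, Cpeb2, a regulator of mRNA polyadenylation and translation, was counted at 524, 356 and 392 CPM at e18.5, against 64.5, 57.7 and 40.3 CPM at e16.5 (log2 fold change 2.97 ± 0.28). Pappa2, a protease that frees insulin-like growth factors, Dsp, the desmosome protein desmoplakin, and Apob, an apolipoprotein, had log2 fold changes of 3.03, 2.75 and 2.73. Sdc4, a heparan sulfate proteoglycan of the cell surface, fell in that class, with 77.4, 70.8 and 67.8 CPM at e18.5, against 560, 633 and 772 CPM at e16.5 (log2 fold change -3.18 ± 0.20, adjusted p = 8.93e-09). Tubb5, a beta tubulin, lay at 83.7, 96.9 and 119 CPM at e18.5, against 436, 516 and 496 CPM at e16.5. The chaperone gene Hspa8 (log2 fold change -2.61), Vwf (-2.57), which encodes von Willebrand factor, and Myof (-2.28), a membrane repair protein, fell as well.

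The promoters of Utf1 and Fat4, a gene that fell and a gene that rose, and of Gtsf1, whose change depended on the genotype as described further on, are shown because DNA methylation, laid down on CG pairs at this stage, is the process these cells are known for. Each sequence is the 250 bases before the RefSeq start, from the GRCm38.p6 assembly, 5′ to 3′ on the gene's strand, with CG pairs in capitals.
Gtsf1: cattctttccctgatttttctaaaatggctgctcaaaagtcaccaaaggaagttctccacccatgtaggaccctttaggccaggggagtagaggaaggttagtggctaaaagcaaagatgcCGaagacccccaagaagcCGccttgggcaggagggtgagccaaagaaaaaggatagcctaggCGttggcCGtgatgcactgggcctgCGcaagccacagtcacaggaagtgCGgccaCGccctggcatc
Utf1: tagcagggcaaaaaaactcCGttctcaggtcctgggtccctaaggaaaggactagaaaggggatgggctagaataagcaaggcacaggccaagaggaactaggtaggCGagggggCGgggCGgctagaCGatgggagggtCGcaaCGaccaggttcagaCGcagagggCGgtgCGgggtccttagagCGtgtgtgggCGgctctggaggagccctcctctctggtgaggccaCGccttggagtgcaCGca
Fat4: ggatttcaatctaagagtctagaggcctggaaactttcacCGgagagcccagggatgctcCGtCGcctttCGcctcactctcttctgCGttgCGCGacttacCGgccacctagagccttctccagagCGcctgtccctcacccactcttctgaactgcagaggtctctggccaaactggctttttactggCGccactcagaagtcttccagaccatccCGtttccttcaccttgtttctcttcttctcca
The Gtsf1 window lies at chr15:103430428-103430677 on the minus strand and holds 7 CG pairs. The Utf1 window, at chr7:139943606-139943855 on the plus strand, holds 14, and the Fat4 window, at chr3:38886690-38886939 on the plus strand, holds 11. Over the 27024 genes with such a window the median was 6 pairs and the quartiles were 2 and 16, so that 56.6%, 72.5% and 66.2% of promoters hold as few pairs as those of Gtsf1, Utf1 and Fat4 or fewer. Methylation itself was not measured in these samples, and the counts describe the letters alone.

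The machinery of transposon silencing fell between the ages in knockout cells. Of 32 tested piRNA pathway genes, 26 (81.2%) fell and 1 rose (median log2 fold change -0.77), and 18 to 27 fell in each setting run. In heterozygous cells 17 of them fell and 1 rose. Over all genes in knockout cells 20% fell and 22.8% rose. Among all genes with a mean log2 CPM of 6 and over, 44.8% fell and 12.8% rose. Asz1, a mitochondrial membrane protein of piRNA production, was counted at 67, 65.5 and 75 CPM at e18.5, against 208, 248 and 249 CPM at e16.5 (log2 fold change -1.77 ± 0.15, adjusted p = 1.17e-07). The PIWI genes Piwil4 (-1.27), whose protein carries piRNAs into the fetal nucleus, and Piwil2 (-0.39), its partner in the cytoplasm, fell, as did the Tudor genes Tdrd12 (-1.40), Tdrd5 (-1.34), Tdrd9 (-0.87) and Tdrd1 (-0.49). Ddx4, the germ granule helicase, fell by 0.93 on the log2 scale. The member that rose was Tdrd6, a Tudor protein of the chromatoid body of later germ cells, with 27.5, 28.2 and 20 CPM at e18.5, against 4.78, 1.94 and 0.548 CPM at e16.5.

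Chromatin genes that act on repeats followed the same direction. Of 29 tested genes of heterochromatin and histone-based repeat silencing, 17 (58.6%) fell and 1 rose (median -0.66). In heterozygous cells 11 of them fell and 1 rose, and the change differed between genotypes for 0. Over all genes in knockout cells 20% fell and 22.8% rose. Among those with a mean log2 CPM of 6 and over, 44.8% fell and 12.8% rose. Morc1, a germ cell ATPase required for retrotransposon repression, was counted at 426, 439 and 470 CPM at e18.5, against 1061, 1061 and 954 CPM at e16.5 (log2 fold change -1.20 ± 0.13). Setdb1 (-1.06), an H3K9 methyltransferase, its partner Atf7ip (-0.96), Trim28 (-0.74), which recruits it through zinc finger proteins, and Atrx (-1.19) fell. Suv39h2 (-0.03), Cbx3 (-0.15) and Ehmt2 (-0.32) did not pass. The 1 member that rose, Prdm9 (log2 fold change 0.62), places the breaks of meiotic recombination. Its call ended in 6 of 24 settings, among them those without any 1 of the 3 knockout e16.5 libraries, with an adjusted p of up to 0.136.

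Genes of DNA methylation were divided. Of 24 tested, 8 (33.3%) fell and 3 (12.5%) rose (median -0.25), and the change differed between genotypes for 0. Over all genes 20% fell and 22.8% rose. Among those with a mean log2 CPM of 6 and over, 44.8% fell and 12.8% rose. Dnmt3l, the cofactor of de novo methylation in germ cells, was counted at 74.6, 89.1 and 81 CPM at e18.5, against 118, 115 and 126 CPM at e16.5 (log2 fold change -0.55 ± 0.14, adjusted p = 0.00299). Dnmt3b (-0.65), Uhrf1 (-0.77), the partner of maintenance methylation, and Tet1 (-1.41), an enzyme of demethylation, fell, while Dnmt3a (-0.06) and Dnmt1 (-0.31) did not pass. Tet3 rose, with 321, 271 and 297 CPM at e18.5, against 179, 164 and 181 CPM at e16.5. Zfp57 (0.88), which keeps methylation at imprinted regions, also rose, but lost its call in 3 of 24 settings, and Dnmt3l lost its own in 2. Of the 23 germline genes whose promoters are known to be silenced by methylation, 15 fell and 0 rose, with a median of -0.49; the list shares members with the piRNA list.

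**Figure D2:**
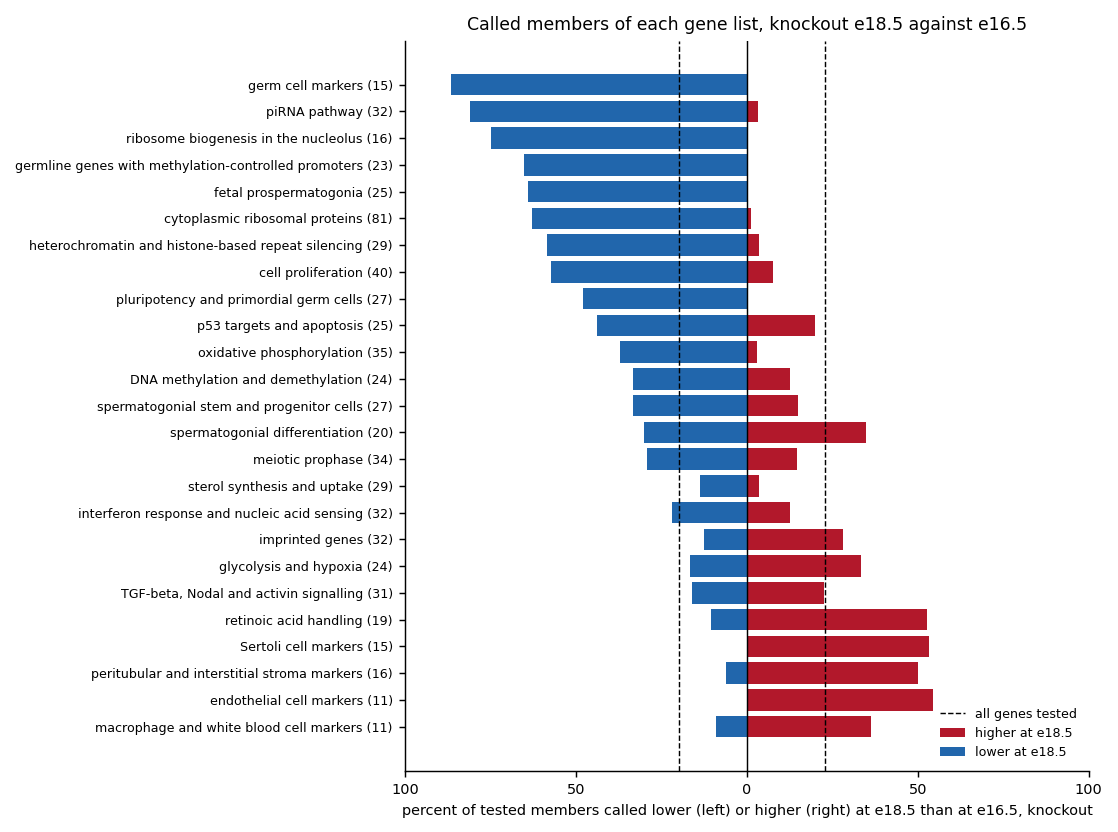
For 25 gene lists, the percent of tested members called lower (blue, left) or higher (red, right) in knockout cells at e18.5 than at e16.5, with the number tested in brackets and dashed lines at the 20% lower and 22.8% higher called over all genes. Germ cell markers, piRNA pathway genes and nucleolar ribosome biogenesis genes have 75% or more of their members called lower, whereas retinoic acid genes and markers of Sertoli and endothelial cells have over 50% called higher.

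Genes of growth and division fell. Of 40 tested proliferation genes, 23 fell and 3 rose (median -0.72), among them Rrm1 (-1.46), a subunit of ribonucleotide reductase, and Bub1 (-1.35), a kinase of the spindle checkpoint, while Ccne1 (1.13) and E2f2 (1.32) rose. The call of Ccne1 ended without knockout e18.5 replicate 1 (adjusted p = 0.0654), and that of E2f2 in 8 of 24 settings (adjusted p up to 0.203). Rb1, the retinoblastoma protein through which fetal germ cells leave the cell cycle, was counted at 580, 476 and 560 CPM at e18.5, against 246, 266 and 257 CPM at e16.5 (log2 fold change 1.07 ± 0.15, adjusted p = 1.69e-05). Of 81 tested cytoplasmic ribosomal protein genes, 51 fell and 1 rose (median -0.80), and of 16 genes of ribosome biogenesis in the nucleolus 12 fell and 0 rose (median -0.69). Rpl41 lay at 17, 20.4 and 18.5 CPM at e18.5, against 67.6, 76.2 and 87.6 CPM at e16.5, and Ubtf, a factor of rRNA transcription, had a log2 fold change of -1.30. Near-identical ribosomal protein copies may share reads, so single values of that family are uncertain. Of 35 oxidative phosphorylation genes 13 (37.1%) fell and 1 rose (median -0.38). Of 24 genes of glycolysis and hypoxia 8 (33.3%) rose and 4 (16.7%) fell (median 0.37). Beside all these lists, 22.8% of all genes rose and 20% fell. Among genes with a mean log2 CPM of 6 and over, 12.8% rose and 44.8% fell. The glycolytic genes Ldha (0.85), Aldoa (0.81) and Pfkp (0.76) were among those that rose. Gpi1, Pkm and the glucose transporter gene Slc2a1 fell. Across the settings their log2 fold changes were -0.86 to -0.50, -0.61 to -0.25 and -0.81 to -0.42.

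Genes that handle retinoic acid, the vitamin A derivative that later starts spermatogonial differentiation, were more often higher. Of 19 tested, 10 rose and 2 fell (median 0.88), against 22.8% higher calls over all genes. Aldh1a2, which makes retinoic acid, was counted at 210, 143 and 174 CPM at e18.5, against 100, 86 and 99.3 CPM at e16.5 (log2 fold change 0.88 ± 0.17). The retinol transporter genes Rbp4 (1.28) and Stra6 (1.97), the receptor gene Rarb (1.46) and Cyp26b1 (1.12), which degrades retinoic acid, rose, and Rara (-0.89) and Rxra (-0.48) fell. The call of Rxra ended in 5 of 24 settings, that of Cyp26b1 without knockout e16.5 replicate 2 and that of Rarb with offsets for length and GC content. Stra8, the classic target in germ cells, had a log2 fold change of 0.00 and did not pass.

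Of 32 tested imprinted genes 9 (28.1%) rose and 4 (12.5%) fell, with a median of 0.40, against 22.8% higher and 20% lower over all genes. Mest, a paternally expressed gene, was counted at 121, 129 and 125 CPM at e18.5, against 35.1, 52.4 and 34.6 CPM at e16.5 (log2 fold change 1.62 ± 0.21). H19, a maternally expressed noncoding RNA, lay at 11.8, 8.19 and 15.4 CPM at e18.5, against 37.7, 51 and 43.6 CPM at e16.5 (log2 fold change -1.90 ± 0.27). In both genes the ages were fully apart. Plagl1 (1.80), Grb10 (1.28), Meg3 (1.23), Dlk1 (1.11) and Rian (0.99) rose, and Zim1 (-1.72), Peg3 (-1.25) and Igf2r (-0.35) fell.

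Smaller medians were found for the lists of meiotic prophase (5 of 34 higher, 10 lower, median -0.16), spermatogonial differentiation (7 of 20 higher, 6 lower, median 0.26), spermatogonial stem cells (4 of 27 higher, 9 lower, median -0.31), TGF-beta signalling (7 of 31 higher, 5 lower, median 0.21), interferon response (4 of 32 higher, 7 lower, median -0.10) and immediate early and stress genes (3 of 27 higher, 5 lower, median -0.22). Of 25 p53 targets 11 fell and 5 rose (median -0.41). Beside the 22.8% higher and 20% lower over all genes, TGF-beta signalling had 22.6% higher and 16.1% lower, and the interferon list 12.5% higher and 21.9% lower. Among interferon genes the RNA sensor Ifih1 (2.54) rose and Adar (-1.33), an RNA-editing enzyme, fell. Sycp3, an axial element protein of meiotic chromosomes, lay at 70.2, 48 and 64.8 CPM at e18.5, against 138, 205 and 155 CPM at e16.5. Of 13 cell cycle inhibitors 2 rose and 3 fell (median -0.13).

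The listed markers of Sertoli, stroma, endothelial and white blood cells were counted in all knockout libraries, and the sum of each list lay higher at e18.5. In the same libraries germ cell markers were lower. Of 15 tested germ cell markers 13 fell and 0 rose (median -0.93), and Dazl (0.34) and Taf7l (-0.36) did not pass. In heterozygous cells 10 of them fell and 1 rose. Over all genes in knockout cells 22.8% rose and 20% fell. At a mean log2 CPM of 0 to 2 and of 2 to 4, 28.3% and 27.3% rose, and at 6 and over 44.8% fell. Sertoli cell markers summed to 82.2 to 101 CPM at e18.5, against 52.7 to 69.4 CPM at e16.5, and 8 of 15 rose, among them the genes Nr5a1 (2.61) and Kitl (2.14). Stroma markers summed to 381 to 393 CPM at e18.5, against 258 to 285 CPM at e16.5, with 8 of 16 higher and 1 lower, and Lum, a collagen-binding proteoglycan, at a log2 fold change of 2.52. The 1 that fell was Pdgfrb (-1.60 to -1.19 across the settings). In heterozygous cells 2 Sertoli markers rose and 1 fell, and 2 stroma markers rose and 2 fell. Heterozygous stroma sums were 348 to 406 CPM at e18.5, against 300 to 496 CPM at e16.5. Endothelial markers summed to 198 to 225 CPM at e18.5, against 112 to 142 CPM at e16.5 (6 of 11 higher). Vwf, an endothelial gene left off that list, fell, with 36.7, 71.9 and 54.1 CPM at e18.5, against 348, 321 and 297 CPM at e16.5. The direction of the endothelial sum therefore depends on the markers listed. Macrophage and white blood cell markers summed to 121 to 150 CPM at e18.5, against 47.7 to 77.6 CPM at e16.5 (4 of 11 higher, 1 lower). The 1 that fell was Cd68 (-1.62 to -1.21 across the settings). In heterozygous cells 4 endothelial markers rose and 0 fell, and 1 white blood cell marker rose and 1 fell.

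Leydig cell markers summed to 74.4 to 91.6 CPM at e18.5, against 76.2 to 83.8 CPM at e16.5, with 2 members at 0 in every knockout library. Of 10 tested, 3 (30%) rose, near the 22.8% over all genes, and 1 to 3 rose across the settings. Of the red blood cell markers 1 of 5 tested (20%) rose, also near that share, with 0 to 2 across the settings, and 4 were at 0 in every knockout library. The part these other cells take in the changes above was not tested, and in bulk samples fewer cells of a type and less RNA per cell cannot be told apart.

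Genes that are nearly silent at e16.5 are described without a count in support, since they reached the test through their e18.5 counts. All 1125 olfactory receptor genes together summed to 731 to 923 CPM at e18.5, against 183 to 257 CPM at e16.5, and 231 of them passed the filter. The sums were 323 to 525 CPM in heterozygous cells at e18.5, against 200 to 345 CPM at e16.5. Vomeronasal receptor genes, of which 90 of 330 passed the filter, summed to 316 to 392 CPM in knockout cells at e18.5, against 85.5 to 120 CPM at e16.5. Rhox12, of the X-linked homeobox cluster of reproductive tissues, had 111 counts in the 3 knockout libraries at e18.5 and 1 at e16.5, a ratio of 113.7 after scaling to library size (95% exact counting interval 19.99 to 4530). Dux, a factor of the cleavage-stage embryo, had 81 counts at e18.5 and 3 at e16.5, a ratio of 27.65 (9.133 to 136.9). The receptor genes and Dux have near-identical copies that may share reads, and the intervals cover counting error only.

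Most changes with age had the same sign in heterozygous cells. Of the 7961 genes called in knockout cells, 7553 had the same sign in heterozygous cells, and 3726 were called there with that sign, which is 46.8% of the knockout calls and 81.1% of the 4594 heterozygous calls (24.7% of all genes, 12.6% higher and 12.1% lower). Heterozygous calls numbered 3026, 2822 and 6009 without heterozygous e16.5 replicate 1, 2 or 3. Another 25 genes were called in both with opposite signs. Dppa3 lay at 15.8, 15.9 and 14.1 CPM in heterozygous cells at e18.5, against 709, 258 and 51.9 CPM at e16.5, and Utf1 at 348, 268 and 309 CPM at e18.5, against 1106, 1051 and 1107 CPM at e16.5. Whether a change differed between genotypes was tested as the change with age in knockout cells minus that in heterozygous cells, a difference in which any shift shared by both genotypes of an age cancels.

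That difference was called for 74 of 18589 genes (0.398%), 65 with a more positive change in knockout cells (0.35%) and 9 with a more negative one (0.0484%). At an unadjusted p under 0.05 there were 1716 genes. Of the 65, 48 rose in knockout cells and 36 fell in heterozygous cells, against 22.8% and 12.1% of all genes, but both changes enter the difference that chose them. The count was 33, 35 and 47 without knockout e18.5 replicate 1, 2 or 3, and 78, 30 and 34 without knockout e16.5 replicate 1, 2 or 3. It was 32, 34 and 92 without heterozygous e18.5 replicate 1, 2 or 3, and 262, 46 and 75 without heterozygous e16.5 replicate 1, 2 or 3. DESeq2 called 197, and a fit with all 20 libraries called 18.

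**Figure D3:**
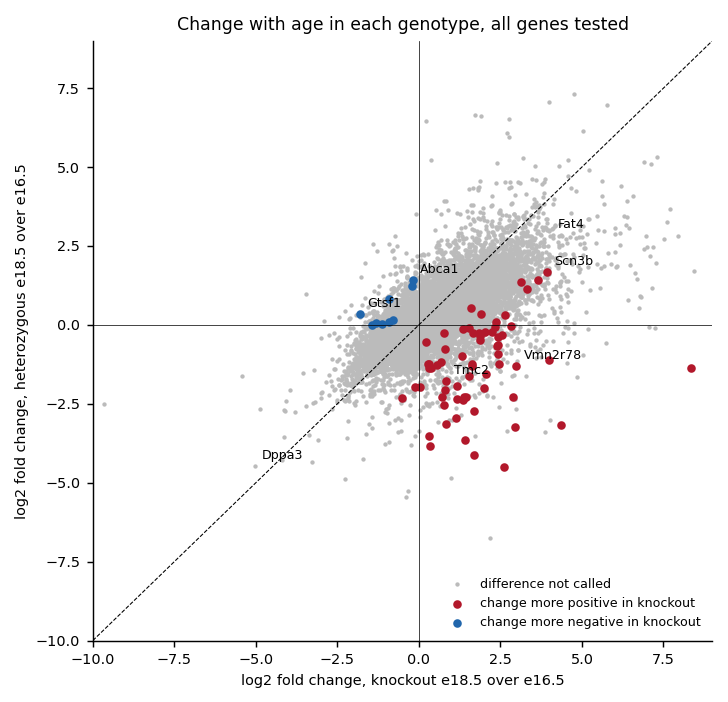
Each point is 1 of the 18589 genes tested, with the log2 fold change from e18.5 over e16.5 in knockout cells on the horizontal axis and in heterozygous cells on the vertical axis; the dashed line marks equal change. The 65 red points, to the right of the line, and the 9 blue points, to its left, are the genes whose change differed between genotypes.

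Gtsf1, a zinc finger protein that binds PIWI proteins and is needed for piRNA-directed silencing in mouse testis, fell in knockout cells and did not pass in heterozygous cells. It was counted at 27.6, 26 and 24.7 CPM in knockout cells at e18.5, against 83.1, 99 and 92.6 CPM at e16.5 (log2 fold change -1.81 ± 0.16, adjusted p = 2.05e-07). Heterozygous cells held 68.5, 83.4 and 92.2 CPM at e18.5, against 73.6, 64.1 and 54.7 CPM at e16.5 (log2 fold change 0.34, adjusted p = 0.119). The knockout libraries at e18.5 lay below the other 9, and the difference between genotypes was -2.15 ± 0.23 (adjusted p = 4.21e-05). It was the 1 member of the 32 piRNA genes whose change differed, in every setting run.

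Genes of cholesterol handling make up 3 of the 9 more negative calls. Insig1, which holds back sterol synthesis in the endoplasmic reticulum, was counted at 43.8, 47.2 and 64.8 CPM in knockout cells at e18.5, against 132, 136 and 119 CPM at e16.5. In heterozygous cells it lay at 142, 130 and 87 CPM at e18.5, against 123, 99.7 and 122 CPM at e16.5, with overlap (difference between genotypes -1.37 ± 0.25, adjusted p = 0.0147). Abca1, the exporter of cholesterol from the cell, behaved otherwise. It lay at 175, 123 and 126 CPM in knockout cells at e18.5, against 131, 194 and 155 CPM at e16.5 (adjusted p = 0.376), and at 283, 295 and 269 CPM in heterozygous cells at e18.5, against 118, 95.1 and 103 CPM at e16.5 (log2 fold change 1.42). Only the heterozygous ages were apart, and the difference was -1.60 ± 0.23 (adjusted p = 0.00203).

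Stard4, a carrier of cholesterol between membranes, fell in knockout cells (11.1, 9.66 and 8.94 CPM at e18.5, against 16.1, 22.5 and 17.9 CPM at e16.5) and rose in heterozygous cells (32.7, 23 and 18.2 CPM at e18.5, against 18.1, 12.5 and 11.6 CPM at e16.5). Of the 29 tested sterol genes, 4 (13.8%) fell and 1 (3.45%) rose in knockout cells (median -0.18), against 20% and 22.8% of all genes. In heterozygous cells 9 rose and 1 fell (median 0.40), against 12.6% and 12.1% of all genes. The difference was called for these 3, all more negative, against 0.0484% of all genes. The number called was 1 to 4 across the settings: Insig1 lost its call in 5 of them and Stard4 in 9. Fsd1l, another of the 9, lay at 52.4, 50 and 49.6 CPM in knockout cells at e18.5, against 132, 142 and 141 CPM at e16.5, and its heterozygous ages overlapped (difference -1.45 ± 0.20, adjusted p = 0.00203).

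Genes with a more positive change in knockout cells were led by Tmc2, a subunit of the mechanotransduction channel of inner ear hair cells. It was counted at 200, 185 and 142 CPM in knockout cells at e18.5, against 104, 85.6 and 105 CPM at e16.5, and at 30.2, 39.3 and 39.6 CPM in heterozygous cells at e18.5, against 102, 141 and 133 CPM at e16.5. It thus rose in knockout cells and fell in heterozygous cells, without overlap in either (difference 2.63 ± 0.24, adjusted p = 5.37e-06). Vmn2r78, a pheromone receptor gene, and Cst11, a cystatin of the male tract, also rose in knockout cells and fell in heterozygous cells. Their differences were 4.29 ± 0.62 and 3.73 ± 0.56, and both calls ended in the fit with all 20 libraries.

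In other genes the heterozygous ages overlapped while the knockout ages did not. Chl1, a neural adhesion molecule, lay at 216, 178 and 170 CPM in knockout cells at e18.5, against 40.2, 28.1 and 40.8 CPM at e16.5, and at 39.1, 45.2 and 75.1 CPM in heterozygous cells at e18.5, against 37.5, 41.5 and 69 CPM at e16.5 (difference 2.27 ± 0.34). Ifi203, of the interferon-induced DNA sensor family, lay at 47.2, 57.2 and 43.4 CPM in knockout cells at e18.5, against 8.89, 7.52 and 4.62 CPM at e16.5, and at 4.3, 6.32 and 13.9 CPM in heterozygous cells at e18.5, against 6.96, 10.5 and 7.38 CPM at e16.5 (difference 2.85 ± 0.48). Lamp3, a lysosomal membrane protein, Malrd1 and the receptor gene Olfr695 had differences of 2.85, 2.48 and 2.40. Scn3b and Trhde, a peptidase, rose in both genotypes and by more in knockout cells, with differences of 2.25 and 2.21. The calls of Chl1, Olfr695, Scn3b and Trhde ended in the fit with all 20 libraries. Those of Olfr695 and Trhde each ended in 5 of 23 settings in all.

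**Figure D4:**
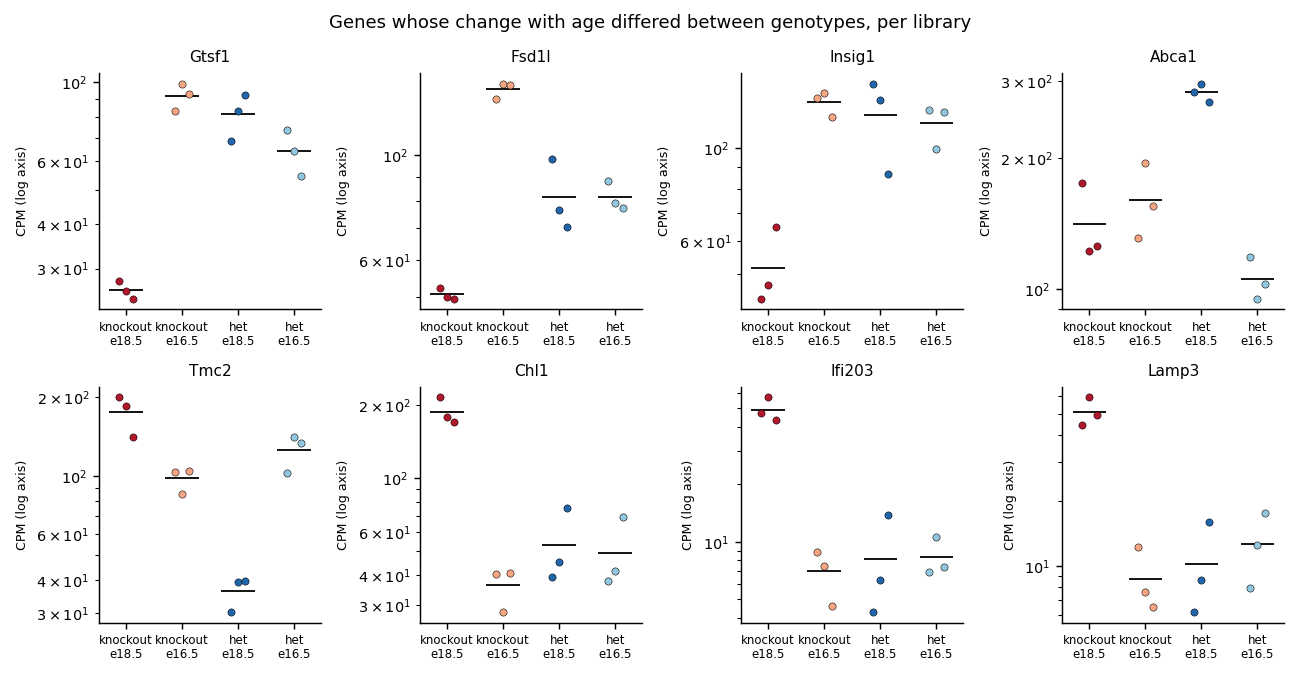
CPM on log axes for 8 genes whose change with age differed between genotypes, 1 point per library and the group mean as a line. Gtsf1, Fsd1l and Insig1 are lower in knockout cells at e18.5 than in every other library shown, Abca1 is higher in heterozygous cells at e18.5, and Tmc2, Chl1, Ifi203 and Lamp3 are highest in knockout cells at e18.5.

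Repeats took a larger share of the counts at e18.5 in knockout cells, and young L1 elements were higher under every scaling run. Repeats took 61.1 ± 3.42% of the counts of knockout libraries at e18.5 and 50.4 ± 4.60% at e16.5 (SD, n = 3 each), a difference of 10.7 percentage points with no overlap (two-sided exact permutation test, p = 0.1, the smallest this design allows). The heterozygous shares were 58.4 ± 3.08% at e18.5 and 55.9 ± 4.31% at e16.5. Of 1143 repeat names tested, 500 (43.7%) were called, 492 (43%) higher at e18.5 and 8 (0.7%) lower, with a median log2 fold change of 0.44. The calls numbered 224 without knockout e18.5 replicate 2, 283 without knockout e16.5 replicate 1 and 203 without knockout e16.5 replicate 2. The CPM of repeats are again per 1000000 gene counts. With the repeats' own TMM factors the median was 0.0039, 201 names were higher and 178 lower, and the effect of that scaling is given beside the groups below. In heterozygous cells 23 names were called (2.01%). The difference in change between genotypes was called for 85 names (7.44%), 84 of them more positive in knockout cells (7.35%) and 1 more negative (0.0875%). It was called for 142, 54 and 45 names without heterozygous e16.5 replicate 1, 2 or 3, and for 51 without either knockout e16.5 replicate 2 or heterozygous e18.5 replicate 1.

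Young L1 elements, autonomous retrotransposons with copies that still move, rose above that background. The 6 names summed to 80908, 93901 and 97728 CPM in knockout cells at e18.5, against 38933, 26600 and 34086 at e16.5. In heterozygous cells they summed to 26347, 31696 and 56007 at e18.5, against 29901, 39678 and 40565 at e16.5. The knockout ages were apart by more than 2-fold, and the heterozygous ages overlapped. All 6 names rose in knockout cells with a median log2 fold change of 1.45, and 1.04 with the repeats' own TMM factors, where all 6 passed as well. In heterozygous cells 0 of 6 passed (median 0.02).

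L1Md_Gf changed most, at 1522, 1805 and 1928 CPM in knockout cells at e18.5, against 513, 336 and 482 at e16.5 (log2 fold change 1.98 ± 0.19, adjusted p = 4.78e-21). L1Md_A lay at 10677, 11741 and 12375 at e18.5, against 4318, 3400 and 3576 at e16.5 (1.62 ± 0.19), and L1Md_T, L1Md_F2, L1Md_F and L1Md_F3 had log2 fold changes of 1.48, 1.42, 1.40 and 1.20. The difference between genotypes was called for all 6 names, with a median of 1.44 and, without heterozygous e16.5 replicate 3, of 1.38. With the repeats' own TMM factors 0 of 6 passed that test, at a median of 1.10, and L1Md_Gf had a difference of 1.49 (adjusted p = 0.0638). Older L1 and Lx names, which have lost mobility, rose in 44 of 105 cases with a median of 0.41, a share close to the 43% over all names. With the repeats' own TMM factors 29 of them rose and 24 fell (median -0.023). Of the 34 names of SINEs, short retrotransposons that depend on L1, 0 passed (median 0.15), whereas with the repeats' own TMM factors 24 fell and 0 rose (median -0.29).

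Endogenous retroviruses of the K class followed in part. All 4 MusD and ETn names rose (median 1.13), led by ETnERV3-int with 628, 621 and 669 CPM at e18.5, against 221, 137 and 186 at e16.5 (log2 fold change 1.82 ± 0.20). The difference between genotypes was called for 3 of the 4, and for 2 without heterozygous e16.5 replicate 3 or with the repeats' own scaling. Of 16 IAP names 12 rose and 0 fell (median 0.74), and the difference between genotypes was called for 13, for 10 without heterozygous e16.5 replicate 3 and for 11 with the repeats' own scaling. With the repeats' own TMM factors 8 IAP names rose and 2 fell in knockout cells. Of 7 MERVL and MT2 names, elements of the cleavage-stage embryo, 5 rose (median 0.53), but 0 did so with the repeats' own TMM factors, and 0 differed between genotypes.

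The IAP names behaved differently from each other. IAPLTR4_I, an internal IAP sequence, was counted at 130, 130 and 154 CPM in knockout cells at e18.5, against 76.5, 38.1 and 53 at e16.5, and at 13.6, 24 and 23.3 in heterozygous cells at e18.5, against 40.4, 52 and 41.8 at e16.5. It rose in knockout cells (log2 fold change 1.30) and fell in heterozygous cells (-1.14), a difference of 2.44 ± 0.30 (adjusted p = 7.08e-13). IAPEz-int, the body of the best known IAP class, lay at 998, 999 and 1011 in knockout cells at e18.5, against 1090, 970 and 1289 at e16.5, with overlap (log2 fold change -0.16, adjusted p = 0.469). IAPEY_LTR, IAPEY3-int and IAPLTR2b rose in knockout cells, with log2 fold changes of 1.57, 1.11 and 0.72, and their differences between genotypes were 1.46, 1.51 and 1.59. In heterozygous cells IAPLTR2b fell (-0.87), and IAPEY_LTR (0.11) and IAPEY3-int (-0.41) did not pass. Of the 16 IAP names 4 fell and 0 rose in heterozygous cells (median -0.41), so both changes enter these differences.

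**Figure D5:**
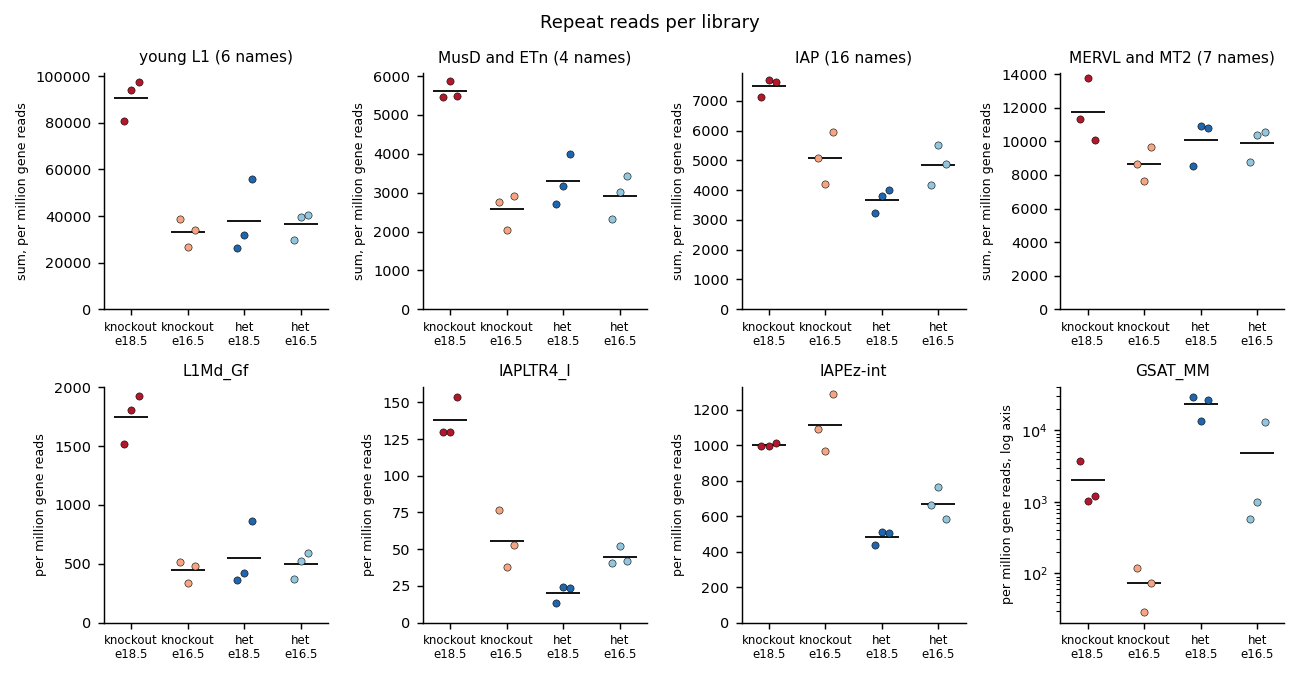
Repeat CPM (per 1000000 gene reads), 1 point per library and the group mean as a line; the upper row sums the names of a group and the lower row shows single names, with a log axis for GSAT_MM. Young L1, MusD and ETn, L1Md_Gf and IAPLTR4_I are highest in knockout cells at e18.5, IAPEz-int overlaps between the knockout ages, and GSAT_MM reaches 28991 in heterozygous cells at e18.5 and 3767 in knockout cells at e18.5.

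GSAT_MM, the major satellite of pericentromeric chromatin, was counted at 3767, 1040 and 1201 CPM in knockout cells at e18.5, against 120, 29 and 73.6 at e16.5 (log2 fold change 4.75 ± 1.37, adjusted p = 0.0258). The ages were apart, but the call ended without any 1 of 5 knockout libraries, with an adjusted p of up to 0.122. Heterozygous cells held 28991, 13681 and 26512 at e18.5, against 567, 989 and 13091 at e16.5, the last being replicate 3. The difference in change between genotypes was not called for GSAT_MM (2.51, adjusted p = 0.422). For the Satellite family it was called (-0.86, adjusted p = 0.00973). That family rose in heterozygous cells (1.22) and did not pass in knockout cells (0.36). In heterozygous cells at e18.5 GSAT_MM held 897673 counts and the Satellite family 305671. The family count thus does not include all reads of that name, and the 2 results are not of the same reads. Over whole families, 16 of 51 were called (31.4%), and 7 and 26 without knockout e18.5 replicate 2 or 3, 2 and 28 without knockout e16.5 replicate 2 or 3. The L1 family held 471420, 554140 and 507100 CPM at e18.5, against 255320, 207380 and 263750 at e16.5 (log2 fold change 1.08 ± 0.16). The family of ribosomal RNA repeats was the 1 (1.96%) that fell (-0.53 ± 0.17, adjusted p = 0.00679), and it fell in heterozygous cells too (-0.61, adjusted p = 0.00646). ERVK (0.53), ERVL (0.48) and MaLR (0.46) rose relative to gene counts but had log2 fold changes of -0.040, -0.10 and -0.12 relative to repeat counts. Without knockout e16.5 replicate 2 the calls of these 4 families ended, that of ribosomal RNA with an adjusted p of 0.0595.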

How the data were processed

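RNA-seq counts of 12 embryonic libraries were analysed. Per the submitters' processing notes the reads were handled with STAR, Bowtie, featureCounts and edgeR on mm9; versions, strand setting and treatment of reads with several matches are not given in the sources used here, so reads may be shared where genes overlap, lie antisense or are near-identical. The deposited tables, 1 set per age, hold whole-number counts for 24495 gene symbols and 1217 repeat names, and estimated counts for 52 repeat families, of which 65.4% (e16.5) and 69.6% (e18.5) were not whole; these were rounded. A family row without a name, 3.48% and 3.3% of family counts, was left out.

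Genes were tested with edgeR 4.0.16 (R 4.3.3): filterByExpr with a minimum count of 10 and total of 15, TMM factors, robust quasi-likelihood fits with 1 mean per group over the 12 libraries, and Benjamini-Hochberg adjustment with a threshold of 0.05. Repeats used the gene library sizes and factors, so their CPM are per 1000000 gene counts. Errors after ± are standard errors of log2 fold changes unless marked SD. Alternatives used DESeq2 1.42.0, limma 3.58.1 voom, other scalings and filters, fewer or more libraries, and length and GC offsets, the last chosen after seeing the data. The procedure was tested on simulated data first. Named are Tex15, the largest called changes without overlap between ages (12 per direction with a mean log2 CPM from 3 up, and 6 from 6 up), the 8 per direction with the smallest p for the difference between genotypes at a mean of at least 1, up to 3 called members per list and direction, and for repeats the largest changes, the smallest p and the 2 most abundant names per group; other list members and low-count genes were named after their values were seen, as was the division of other repeats into older L1, SINE and simple repeats. The members and lists were chosen with earlier results of these data known. Promoter windows come from RefSeq. A gene that the rule names is not reported here. Replicates of a group differed by more than counting noise. With 3 libraries per group, precision is set by the spread between libraries, over 9.97 to 13.9 M gene counts per knockout library.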

Additional observations from a re-analysis of the deposited data

Results flagged for a closer look

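The change with age differed between genotypes, by the test of the difference itself, for 74 genes and 85 repeat names. Among genes with a more positive change in knockout cells, the log2 differences were 2.63 for Tmc2, 4.29 for Vmn2r78, 3.73 for Cst11, 3.06 for Pglyrp4, 2.27 for Chl1, 2.48 for Malrd1, 2.85 for Lamp3 and 2.85 for Ifi203. Scn3b (2.25) and Trhde (2.21), named for their rise with age, and Olfr695 (2.40), named from the receptor list, met the same criterion. Pglyrp4, a peptidoglycan-binding protein, lay at 19.8, 11.9 and 18.6 CPM in knockout cells at e18.5, against 3.1, 2.36 and 4.15 CPM at e16.5. The call of its difference ended in 1 of 23 settings (adjusted p = 0.381).

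More negative changes in knockout cells were -2.15 for Gtsf1, -1.45 for Fsd1l, -1.60 for Abca1, -1.42 for Gin1, -1.37 for Insig1, -0.94 for Asnsd1, -1.74 for Stard4 and -1.18 for Wdr41. The call of Asnsd1 ended in 5 of 23 settings (adjusted p up to 0.0723). Gin1, which resembles a retrotransposon integrase, lay at 58.8, 46.8 and 58.1 CPM in knockout cells at e18.5, against 56.4, 57.2 and 74.6 CPM at e16.5, and at 107, 121 and 89.1 CPM in heterozygous cells at e18.5, against 47.4, 47.9 and 40.8 CPM at e16.5.

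Among repeats the log2 differences were 1.83 for L1Md_Gf, 1.63 for L1Md_A, 1.47 for L1Md_T, 1.33 for L1Md_F2, 1.40 for L1Md_F, 1.16 for L1Md_F3, 1.34 for ETnERV3-int, 0.93 for ETnERV2-int, 1.46 for IAPEY_LTR, 2.44 for IAPLTR4_I, 1.59 for IAPLTR2b and 1.51 for IAPEY3-int. The heterozygous e16.5 libraries that enter every one of these differences include replicate 3, which lay between the ages. Fits without it are given above for counts of calls and for the young L1 median, not for single differences.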

How the results depend on the processing

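The number of genes that differed between the ages in knockout cells was 6129 to 8959 over all settings run. Without a scaling factor 2196 genes were lower. The number of genes whose change differed between genotypes was 197 with DESeq2, 18 with all 20 libraries and 30 to 262 without 1 library. In heterozygous cells 6926 genes were called by voom, and 2822 to 6009 without 1 library. For repeat names in knockout cells the calls ran from 203 to 615 without 1 library (195 to 606 higher, 5 to 12 lower). With the repeats' own TMM factors 201 were higher and 178 lower, and with their own totals 228 and 129. Differences between genotypes were called for 45 to 142 repeat names without 1 library. Families called were 29 with the repeats' own totals and 2 to 28 without 1 library. Signs turned for B3 (-0.33 with own TMM factors, -0.28 with own totals), MERVL_2A-int (-0.19 and -0.15) and the B2 family (-0.13 and -0.37), and with own totals for ERVK (-0.040), ERVL (-0.10), MaLR (-0.12) and Alu (-0.39). Changes that were not called also crossed 0: the Satellite family (-0.23 with own totals), MT2A (-0.031 with own TMM factors), and Abca1 (0.066) and Gin1 (0.031) without a scaling factor. The causes were not tested. Own TMM factors put the median repeat name at 0.0039 and the median family at -0.00090, and own totals put them at 0.049 and -0.24. The replicate numbers do not pair the samples (correlations of deviations -0.05, -0.04 and -0.03 in knockout cells). With the replicate block 7849 genes, 493 repeat names and 17 families were called in knockout cells, 69 genes and 86 repeat names differed between genotypes, and 4579 genes were called in heterozygous cells. Wdr41, named for its difference between genotypes, lost its call there (adjusted p = 0.0518) and in 11 other settings. Genes under 1 CPM rest on few counts, which limits the precision of their fold changes.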

Other observations

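Further groups lay outside the comparisons above. Of 28 tested clustered protocadherins 6 (21.4%) rose and 4 (14.3%) fell in knockout cells, against 22.8% and 20% over all genes, with a median log2 fold change of -0.11. Pcdhb17 had 130 counts in knockout cells at e18.5 and 2 at e16.5, a ratio of 66.58 after scaling to library size (95% exact counting interval 18.06 to 555.6), whereas Pcdhgb7 fell (log2 fold change -2.29). Pcdhb17 reached the test through its e18.5 counts, and its interval covers counting error only. Of 30 Rhox genes 13 passed the filter, some through their e18.5 counts, among them Rhox6 (2.39), which rose, and Rhox10 (-1.38) and Rhox1 (-1.63), which fell, Rhox1 without a call when knockout e18.5 replicate 2 was left out. Among the 17 tested genes of spermiogenesis 4 (23.5%) rose and 2 (11.8%) fell, with Tnp1, which encodes a protein that replaces histones in spermatids, at 2.14. Of the simple repeats 76 of 272 names rose and 4 fell, against 43% and 0.7% over all repeat names, and 23 rose and 36 fell with the repeats' own TMM factors. Among those that rose, named for its size among abundant repeats, was (C)n with 144, 162 and 161 CPM in knockout cells at e18.5, against 49.8, 43.3 and 49.2 at e16.5. It rose in heterozygous cells too, with 126, 139 and 189 at e18.5, against 55.5, 61.4 and 59.4 at e16.5.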
